A study of Mus musculus with 35 samples.

Results

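The genes described here handle fatty acids at the surface and inside of liver macrophages (macs): *Lpl*, *Angptl4*, *Cd36*, *Fabp4*, *Fabp5*, *Fabp7*, *Pparg*, *Ppard*, *Ppargc1b* and *Pdk4*. They were taken by symbol from the deposited count tables, 10 of 54735 gene symbols. The rule uses no measured value, although earlier results of these data were known when the list was made. All 10 were among the 13421 genes that passed the filter on low counts, which asked for more than 1 count in 1000000 (CPM) in at least 5 samples.

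Bulk RNA-seq was available for 35 samples of macs sorted from the livers of male C57BL/6J mice, which received a standard diet (SD) or a western diet (WD) from 5 weeks of age. The WD was rich in fat and cholesterol and came with fructose and sucrose in the drinking water, a model of fatty liver disease. Resident Kupffer cells (ResKCs, CLEC4F+TIM4+) came from 7 SD and 5 WD samples at 12 weeks of diet and from 6 SD and 6 WD samples at 24 weeks. Monocyte-derived KCs (moKCs, CLEC4F+TIM4-, 5 samples) and CLEC4F- macs (6 samples) came from the WD at 24 weeks alone, so that the effect of the diet was measured in ResKCs only. The labels of the 5 WD ResKC samples at 12 weeks disagree: 1 field gives SD, while title and description give WD, and the latter was followed. Every value at 12 weeks rests on that reading. In sorted bulk samples, fewer cells of a type and less RNA per cell cannot be told apart.

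Macs meet fatty acids as free acids and as triglycerides in lipoproteins. Lipoprotein lipase (*Lpl*) is secreted and cleaves these triglycerides, ANGPTL4 (*Angptl4*) inhibits the lipase, and CD36 (*Cd36*) is a surface receptor for fatty acids and oxidised lipoproteins. Inside the cell, fatty acid binding proteins (*Fabp4*, *Fabp5*, *Fabp7*) carry the acids, which are ligands of the nuclear receptors PPARγ (*Pparg*) and PPARδ (*Ppard*). PGC-1β (*Ppargc1b*) is a transcriptional coactivator of mitochondrial and lipid genes, and PDK4 (*Pdk4*) is a kinase that inhibits pyruvate dehydrogenase and so spares glucose when fat is burned. *Lpl*, *Angptl4*, *Cd36*, *Fabp4* and *Pdk4* are all known targets of PPARs.

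In mm10 (GENCODE M21) *Fabp4* and *Fabp5* lie on the same chromosome, at chr3:10204088-10208576 and chr3:10012548-10016607. *Lpl* lies at chr8:68880491-68907448, *Angptl4* at chr17:33773750-33781830, *Cd36* at chr5:17781690-17888801, *Pparg* at chr6:115360951-115490399 and *Fabp7* at chr10:57784881-57788450. No exon of the 10 genes overlapped an exon of another gene on either strand. RefSeq promoter windows (GRCm38.p6, 250 bases before to 50 after a start) were matched for 5 of the 10: *Cd36*, *Pparg* (3 starts), *Fabp7*, *Ppard* and *Pdk4*. Shown here are the upstream bases of *Cd36*, the only gene with a window that changed with the diet. Those of the last listed start of *Pparg*, a gene whose counts differed between the populations, are shown as well. Counts per gene do not tell which start was used. Both starts lie inside the span of the gene. Capitals mark the 6-base core motif of nuclear receptors (AGGTCA, read on either strand).
*Cd36*, chr5:17835897-17836146, minus strand: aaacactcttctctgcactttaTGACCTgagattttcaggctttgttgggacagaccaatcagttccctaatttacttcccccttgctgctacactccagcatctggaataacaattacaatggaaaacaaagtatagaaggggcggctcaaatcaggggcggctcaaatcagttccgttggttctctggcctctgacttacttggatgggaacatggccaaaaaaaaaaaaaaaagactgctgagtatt
*Pparg*, chr6:115421816-115422065, plus strand: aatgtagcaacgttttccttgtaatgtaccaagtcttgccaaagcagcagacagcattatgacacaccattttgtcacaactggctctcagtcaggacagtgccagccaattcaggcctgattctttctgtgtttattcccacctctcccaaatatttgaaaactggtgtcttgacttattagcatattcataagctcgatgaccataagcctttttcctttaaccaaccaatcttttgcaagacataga

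The motif was found in the *Cd36* window, -228 from the start, and not in this *Pparg* window. It was also present in the window of *Fabp7* and in those of the other 2 starts of *Pparg*, and 16.3% of all 32851 windows held it. Its direct repeat with 1 base between (AGGTCANAGGTCA), the arrangement bound by PPAR-RXR pairs, was in none of these windows and in 0.0396% of all. A match is a description of the letters only.

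Across the samples the total counts were between 11568590 and 15163845, at which 3 counts of a gene are 0.198 to 0.259 CPM, counting error alone. CPM values below are scaled with TMM factors (edgeR). The sums of marker lists followed the sorts. A list of 6 ResKC genes summed to 26522 to 36899 CPM for ResKCs, 17013 to 24560 CPM for moKCs and 1291 to 12183 CPM for CLEC4F- macs. The 5 genes of the CLEC4F- macs summed to 618 to 1928 CPM there and to 6.99 to 174 CPM elsewhere. *Timd4*, which encodes TIM4, had 547 to 884 CPM in WD ResKCs at 24 weeks and 2.85 to 30.3 CPM in moKCs. *Clec4f* had 7317 to 11603 CPM in moKCs and still 293 to 5482 CPM in CLEC4F- macs. SD ResKC replicate 7 at 12 weeks stood apart from its group. It held the highest *Lpl*, *Angptl4*, *Cd36*, *Fabp4* and *Pdk4* of the 7 samples, the highest sum over 10 hepatocyte genes of all 35 samples (2891 CPM) and 89 counts of *Cfd*, a complement protease of adipocytes, which was at 0 in the other 12 SD ResKC samples and above 0 in all 11 WD ResKC samples. moKC replicate 1 stood apart with the lowest *Lpl*, *Angptl4*, *Cd36*, *Pparg*, *Fabp4* and *Fabp5* and the highest *Ppard*, *Ppargc1b*, *Fabp7* and *Pdk4* of its group. CLEC4F- mac replicate 4 had the highest ResKC marker sum of its group (12183 CPM, with 1291 to 5542 CPM in the others) and the lowest sum of the CLEC4F- mac markers (618 CPM, with 1305 to 1928 CPM in the others). The count tables name their alignments by 2 schemes. Both occur in most groups, but only the first in WD ResKCs at 12 weeks and SD ResKCs at 24 weeks, and what the schemes stand for is not stated.

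**Figure D1:**
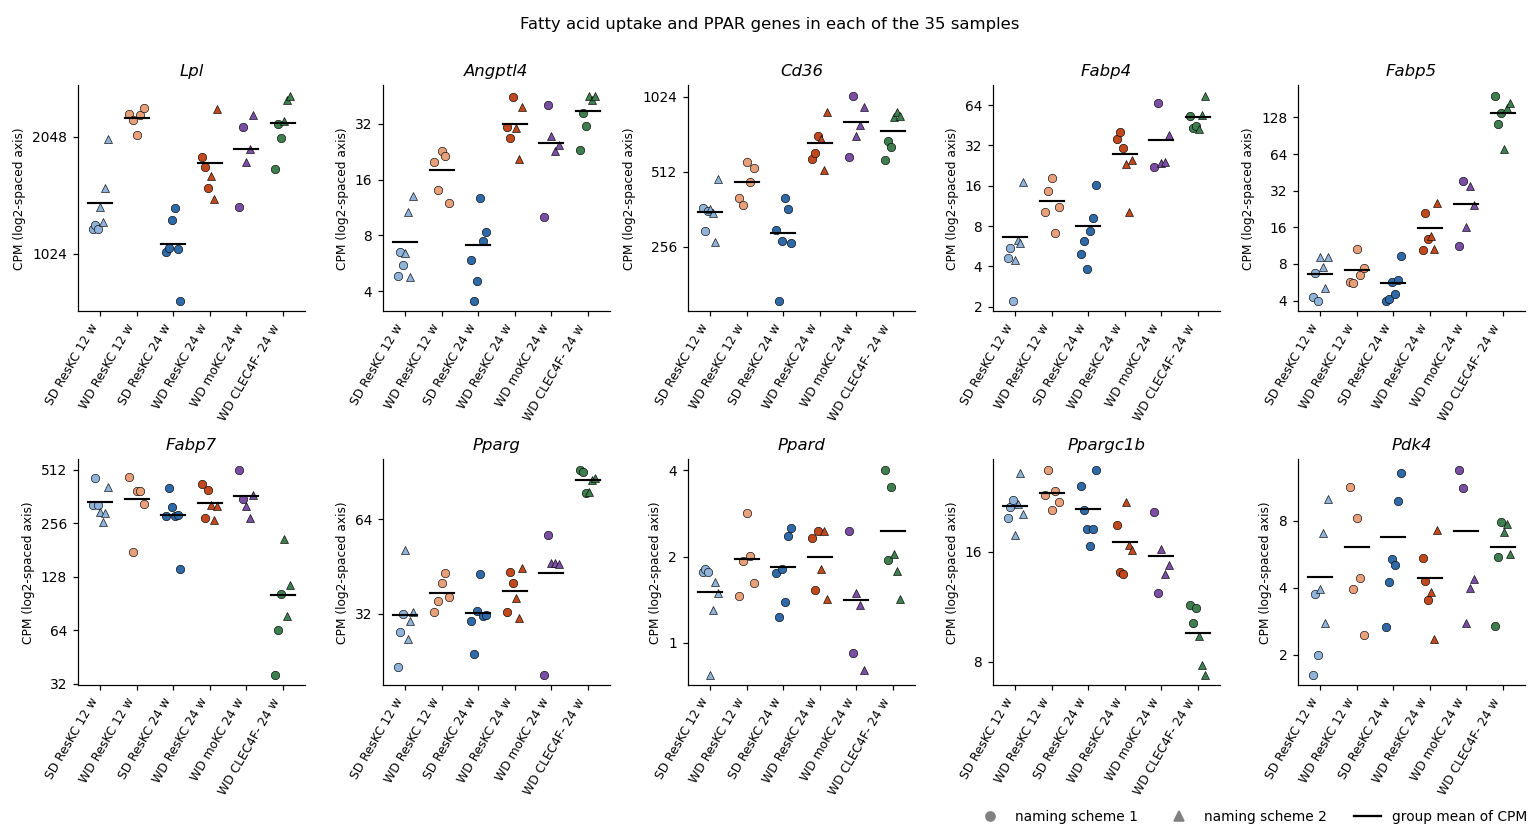
CPM of each of the 10 genes (log2-spaced axis) in every sample of the 6 groups. Circles are samples of the first naming scheme, triangles of the second, and bars are group means. *Lpl*, *Angptl4*, *Cd36* and *Fabp5* of WD ResKCs at 24 weeks lie above all SD samples of that time, and *Fabp5* and *Pparg* are highest in CLEC4F- macs.

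The genes covered a wide span of levels. Per kb of merged exons, WD ResKCs at 24 weeks had 267 ± 51.1 CPM of *Fabp7*, 185 ± 36.0 CPM of *Cd36* and 167 ± 33.9 CPM of *Lpl* (s.d., standard deviation, n = 6). *Pparg* stood at 12.8 ± 1.94 CPM per kb, *Angptl4* at 9.07 ± 2.41, *Fabp4* at 6.12 ± 2.36, *Fabp5* at 4.39 ± 1.72 and *Ppargc1b* at 4.26 ± 0.770 (s.d., n = 6). The lowest were *Pdk4* at 1.27 ± 0.484 and *Ppard* at 0.266 ± 0.0627 CPM per kb, the latter from 18 to 32 counts in a sample. The exons of *Fabp4* merge to 1 block of 4.489 kb that covers the whole gene, which lowers its level per kb. Those of *Fabp5* merge to 2 blocks of 3.567 kb in all. The order per kb depends on these merged lengths, which were 10.478 kb for *Lpl*, 3.59 kb for *Cd36* and 1.25 kb for *Fabp7*. Without division by length, WD ResKCs at 24 weeks had 1748 CPM of *Lpl*, 665 CPM of *Cd36* and 334 CPM of *Fabp7*. In CLEC4F- macs the order was another: *Lpl* (212 ± 32.5 CPM per kb) and *Cd36* (208 ± 36.9) came before *Fabp7* (80.4 ± 47.9), and *Fabp5* had 39.2 ± 12.1 CPM per kb (s.d., n = 6).

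**Figure D2:**
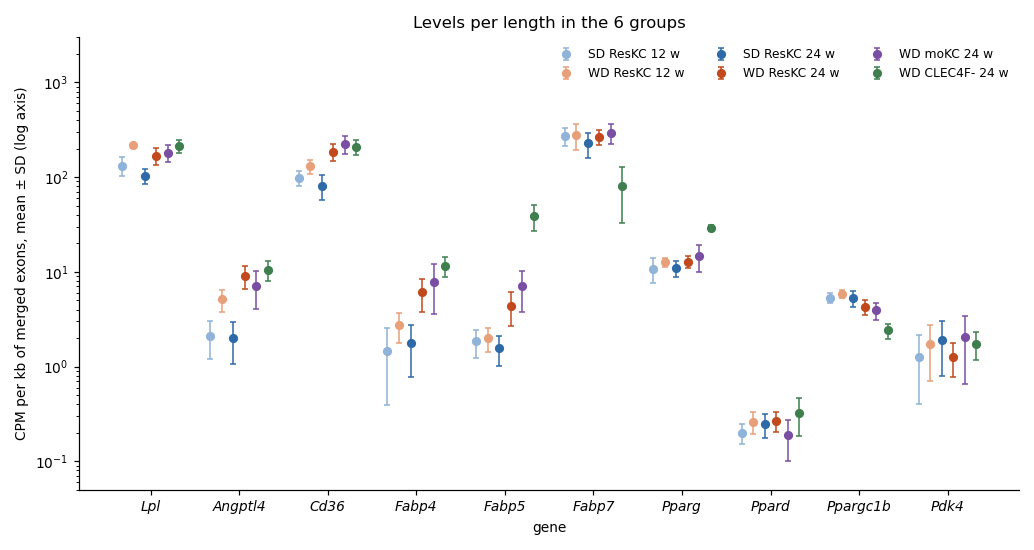
Level of each gene per kb of merged exons (mean ± SD, log axis) in the 6 groups. *Fabp7*, *Cd36* and *Lpl* form the upper tier in ResKCs, *Ppard* is lowest, and *Fabp5* of CLEC4F- macs stands at 39.2 against 4.39 CPM per kb in WD ResKCs at 24 weeks.

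How ResKCs responded to the diet was asked at 24 weeks first. Lipase, its inhibitor, the fatty acid receptor and 2 binding proteins were higher under WD, whereas the receptors, the coactivator, *Fabp7* and *Pdk4* did not pass the test. Thus 5 of the 10 genes were called higher (adjusted p under 0.05 over all genes, edgeR's quasi-likelihood test) and 0 lower, where 4.84% of all genes were called higher. Scaled by library size alone, 1139 of 1479 called genes were higher against 650 of 1169 with TMM factors. The median log2 fold change was 0.46 over the 10 genes and 0.0037 over all genes.

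*Angptl4* ranged from 3.55 through a median of 6.70 to 12.8 CPM under SD and from 20.7 through 30.6 to 44.5 CPM under WD. All 6 WD samples lay above all 6 SD samples. The means of 7.10 ± 3.32 and 32.1 ± 8.54 CPM (s.d., n = 6 each) gave a log2 fold change of 2.18 (SE, standard error, 0.30, adjusted p = 1.63e-05), or 4.53-fold, the greatest of the 10.

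For *Cd36* the SD samples had 156 to 402 CPM (median 284) and the WD samples 519 to 885 CPM (median 649), again without overlap. Its log2 fold change was 1.19 with a 95% confidence interval from 0.83 to 1.54 (2.28-fold, adjusted p = 4.08e-05). *Lpl*, the lipase, went from 776 to 1345 CPM (median 1060.0) under SD to 1416 to 2412 CPM (median 1667) under WD. The groups of *Lpl* did not overlap, although the lowest WD sample and the highest SD sample were close. Its rise was 1.61-fold (log2 fold change 0.68, SE 0.14, adjusted p = 0.00288).

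The binding proteins parted. *Fabp5*, found in many cell types, had 4.00 to 9.23 CPM (median 5.14) under SD and 10.4 to 25.5 CPM (median 13.3) under WD, with all WD samples above all SD samples. It rose by a log2 fold change of 1.48 (SE 0.30, adjusted p = 0.00191). *Fabp4*, the form of adipocytes, macs and capillary endothelium, had 3.84 to 16.2 CPM (median 6.75) under SD and 10.2 to 40.0 CPM (median 27.9) under WD. Here the groups overlapped, since WD replicate 5 (10.2 CPM) lay below SD replicate 6 (16.2 CPM), and the log2 fold change was 1.79 (SE 0.38, adjusted p = 0.00296). *Fabp7*, known from brain and from KCs, had 284 ± 84.5 CPM under SD and 334 ± 63.9 CPM under WD (s.d., n = 6 each), or 0.23 on the log2 scale with an interval from -0.31 to 0.78 (adjusted p = 0.644). Of the 10 genes, 4 had groups that did not overlap, as did 4.11% of all genes.

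Among the nuclear receptors and their partner no change was detected at 24 weeks. *Pparg* had 32.1 ± 6.08 CPM under SD and 37.9 ± 5.73 CPM under WD, with a log2 fold change of 0.24 (interval -0.11 to 0.59, adjusted p = 0.410). *Ppard* differed by 0.11 on the log2 scale (-0.47 to 0.69, adjusted p = 0.851) at 1.85 and 2.00 CPM. *Ppargc1b* had 20.9 ± 3.90 CPM under SD and 17.0 ± 3.07 CPM under WD, a log2 fold change of -0.30 (-0.58 to -0.03, adjusted p = 0.160). *Pdk4* spread over 2.67 to 13.2 CPM under SD and 2.37 to 7.25 CPM under WD, with a log2 fold change of -0.60 (-1.5 to 0.31, adjusted p = 0.430).

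**Figure D3:**
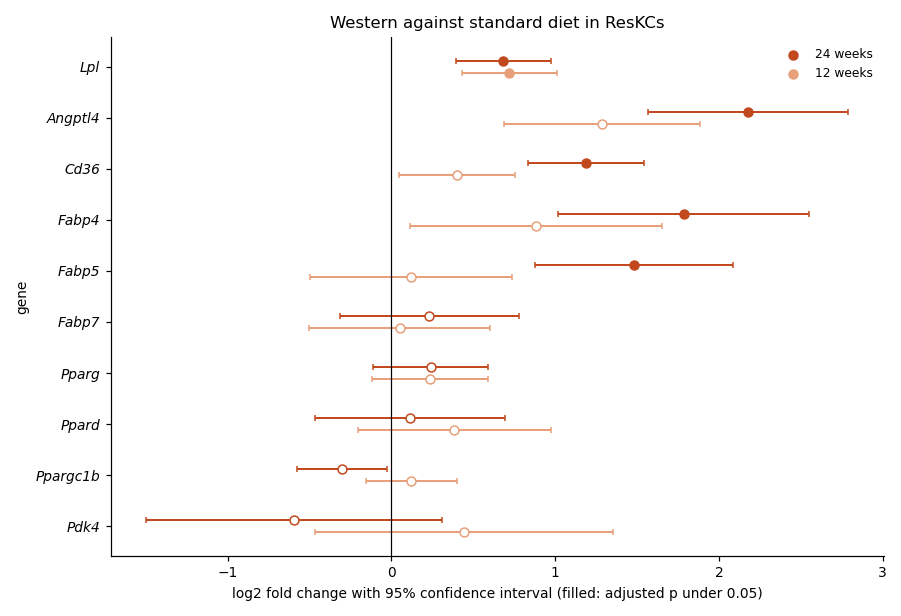
Log2 fold change of WD against SD in ResKCs at 24 weeks (dark) and 12 weeks (light) with its 95% confidence interval. Filled points have an adjusted p under 0.05: *Lpl*, *Angptl4*, *Cd36*, *Fabp4* and *Fabp5* at 24 weeks and *Lpl* at 12 weeks.

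Other lists of genes moved with the diet at 24 weeks. The 10 immediate-early and heat-shock genes respond to handling of cells among other stimuli. They summed to 2584 to 13812 CPM under SD and to 1049 to 4939 CPM under WD, and 7 of the 10 were called lower. The study reports *Fos*, a gene of this list, as lower under WD in its single-cell data of immune and niche cells. The part of handling and of diet in the drop was not tested. With the mean of these 10 genes as a covariate 3 of the 5 calls were kept (*Angptl4*, *Cd36*, *Fabp5*). Those of *Lpl* (0.46, adjusted p = 0.0896) and *Fabp4* (1.05, adjusted p = 0.145) were not. The 10 hepatocyte genes summed to 378 to 1263 CPM under SD and to 972 to 2748 CPM under WD, all 10 with a positive fold change and 1 called. The 10 endothelial genes went the other way (1190.4 to 2275 CPM and 834 to 1360.0 CPM, 2 called lower), and liver endothelium also expresses *Cd36* and *Fabp4*. All 5 calls held with either of these lists as a covariate. Of 4 adipocyte genes, *Adipoq* was at 0 in all 35 samples, and the sum was 0 to 0.289 CPM under SD and 0.0752 to 5.29 CPM under WD, where *Cfd* made up most of it. The 5 CLEC4F- mac markers summed to 6.99 to 20.9 CPM under SD and to 36.9 to 122 CPM under WD, without overlap and with 2 of the 5 called higher, and the CLEC4F- macs themselves had 71.0 to 193 CPM of *Fabp5* and 42.2 to 75.3 CPM of *Fabp4*. The part of these markers in the rise of both genes was not tested. Within the first naming scheme (3 WD and 6 SD samples) the same 5 genes were called.

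**Figure D4:**
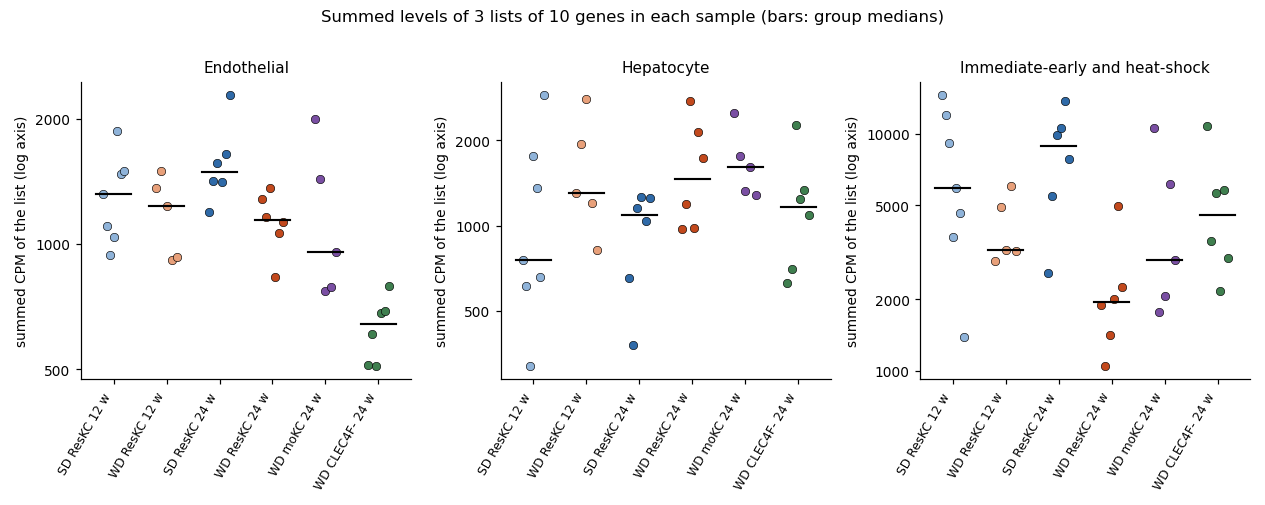
Summed CPM (log axis) of 10 endothelial, 10 hepatocyte and 10 immediate-early and heat-shock genes in each sample, with group medians as bars. At 24 weeks the medians of the first and last lists are lower and that of the second higher under WD in ResKCs. CLEC4F- macs have the lowest endothelial median (644 CPM, range 510 to 790.4 CPM), with overlap with moKCs.

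A list of 70 other genes of the pathway was followed, of which 58 passed the filter. At 24 weeks 11 of the 58 were higher under WD and 0 lower, where 4.84% of all genes were higher, with a median log2 fold change of 0.20. The class of PPAR target and partner enzymes, with 23 of the 58, held 9 of the 11. *Plin4*, a lipid droplet coat protein, had 0 counts in all 6 SD samples and 1 to 15 counts in the WD samples (0.498 CPM on average). It passed the filter through WD samples alone, so that no fold is given. With 0 counts under SD it could come out only as higher, so that *Plin4* lends no weight to the counts above. *Ppara*, the PPAR that drives fat oxidation in hepatocytes, stood at 0.750 CPM under SD and 5.80 CPM under WD (log2 fold change 2.94, SE 0.72, adjusted p = 0.00991). Its SD level lay below the 1 CPM that the filter asked for, so that the size of this fold is uncertain. The droplet protein *Plin5* (2.49, adjusted p = 0.0404), at most 8.12 CPM in any sample, also rose. Both *Ppara* and *Plin5* are expressed in hepatocytes. All 10 genes of the hepatocyte list had positive fold changes, with a median of 0.83 on the log2 scale and 1 called. The part of hepatocyte RNA in the rise of *Ppara* and *Plin5* was not tested. The lipase machinery (11 tested) and the acyl-CoA synthetases (4 tested) gave 0 calls, with 2 genes of each at an unadjusted p under 0.05. The number called in either direction was 9 with the hepatocyte covariate (8 higher). It was 1 with the immediate-early covariate, 4 within the first naming scheme and from 6 to 11 without 1 replicate. There were 6 without SD replicate 4 or WD replicate 3 and 7 without SD replicate 1 or 2 or WD replicate 6.

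At 12 weeks all 10 genes had a positive fold change in WD ResKCs (median 0.39, and 0.016 over all genes), yet *Lpl* alone was called, where 0.0149% of all genes were called higher. Its SD samples had 1185 to 2018 CPM (median 1237), and the WD samples had 2341, 2263, 2065, 2325 and 2432 CPM. The 5 WD samples lay above all 7 SD samples, and the groups did not overlap in 0.499% of all genes. The change was 1.65-fold (log2 fold change 0.72, SE 0.14, adjusted p = 0.0474). Of the 12 fits without 1 replicate, *Lpl* passed in 1, that without SD replicate 7 (0.83, adjusted p = 0.00148), and had an adjusted p of 0.0811 to 0.164 in the others.

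*Angptl4* had 4.77 to 13.0 CPM (median 6.41) under SD and 20.0, 14.1, 22.8, 21.6 and 12.0 CPM under WD at 12 weeks. Only the last of these WD samples reached down to the SD samples, and the log2 fold change of 1.29 (SE 0.29) had an adjusted p of 0.0938. Without SD replicate 7 it was 1.48 (adjusted p = 0.0104). *Cd36* went from 354 ± 66.0 CPM (s.d., n = 7) to 467 ± 79.2 CPM (s.d., n = 5), with a log2 fold change of 0.40 (0.05 to 0.75, adjusted p = 0.509). *Fabp4* had 2.21 to 17.2 CPM under SD and 7.06 to 18.1 CPM under WD (log2 fold change 0.88, adjusted p = 0.506), and 1.33 (adjusted p = 0.0704) without SD replicate 7, its highest SD sample. *Fabp5* had 6.56 ± 2.16 and 7.13 ± 2.03 CPM, with no change detected (log2 fold change 0.12, interval -0.50 to 0.74). Of the 58 other pathway genes 0 were called, and 5 had an unadjusted p under 0.05.

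Whether the diet effect differed between 24 and 12 weeks was tested in the same model. None of the 10 genes passed (0 called, 4 at an unadjusted p under 0.05, where 0.283% of all genes were called), with 2 called by DESeq2 and 0 by limma-voom. *Fabp5* had the greatest difference, 1.36 on the log2 scale (0.50 to 2.23, adjusted p = 0.132), and *Cd36* differed by 0.79 (0.29 to 1.29, adjusted p = 0.132). These were the 2 genes that DESeq2 called, with adjusted p = 0.0434 for *Fabp5* and 0.0499 for *Cd36*. For *Angptl4* the difference was 0.89 (0.04 to 1.74, adjusted p = 0.332), and for *Lpl* it was -0.04 (-0.45 to 0.38).

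With time under WD, *Fabp5* was the gene that changed. It had 5.68, 5.57, 10.5, 6.50 and 7.40 CPM at 12 weeks and 10.4 to 25.5 CPM at 24 weeks, a log2 fold change of 1.13 (SE 0.31, adjusted p = 0.0363), where 1.53% of all genes were called higher. It was past the limit in 4 of the 11 fits without 1 replicate. Without replicate 1, 2, 4 or 5 of 12 weeks or replicate 2, 4 or 6 of 24 weeks the adjusted p was 0.0502 to 0.102, the last without replicate 6 of 24 weeks. *Fabp4* (1.17, adjusted p = 0.0884, and 1.34, adjusted p = 0.0425, without replicate 5 of 24 weeks) and *Ppargc1b* (-0.45, adjusted p = 0.0703, and -0.54, adjusted p = 0.0454, without replicate 4 of 24 weeks) came next without passing. On the SD 0 of the 10 genes and 0% of all genes were called between 24 and 12 weeks, with 1 of the 10 (*Lpl*, -0.35) at an unadjusted p under 0.05 and 0 of the 10 by DESeq2 or limma-voom. Over all genes 1208 had an unadjusted p under 0.05, and DESeq2 called 22 and limma-voom 0.

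The 3 populations on the WD at 24 weeks were compared next. CLEC4F- macs had more *Fabp5* and *Pparg* and less *Fabp7* and *Ppargc1b* than both kinds of KCs. For the receptor *Cd36* and the inhibitor *Angptl4* no difference between the populations passed the test. Of the 10 genes, 2 were called higher and 3 lower in ResKCs than in CLEC4F- macs, where 17.0% of all genes were called higher and 16.1% lower. Library size alone shifted the median of all genes in this comparison by -0.12 and left 1631 of 4899 called genes higher, against 2278 of 4433 with TMM factors. The 5 calls included all 5 genes whose groups did not overlap, as did 16.0% of all genes.

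*Fabp5* showed the greatest distance. CLEC4F- macs had 71.0 to 193 CPM (median 146), moKCs had 11.3, 38.2, 16.2, 35 and 24.3 CPM, and WD ResKCs had 10.4 to 25.5 CPM. The CLEC4F- macs lay above all KC samples, at 8.92 times the level of ResKCs (log2 fold change of ResKCs against CLEC4F- macs -3.16, SE 0.29, adjusted p = 4.68e-10) and 5.6 times that of moKCs (-2.48, SE 0.30, adjusted p = 6.02e-07). Between ResKCs and moKCs the log2 fold change was -0.67 (-1.26 to -0.08, adjusted p = 0.228), and 2 of the 6 ResKC samples lay below every moKC sample.

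*Fabp7* ran the other way. WD ResKCs had 268 to 426 CPM (median 322), moKCs 513, 349.6, 322, 276 and 371 CPM, and CLEC4F- macs 35.9 to 209 CPM (median 89.7), with every KC sample above every CLEC4F- mac sample. ResKCs had 3.32-fold and moKCs 3.65-fold the level of CLEC4F- macs (log2 fold changes 1.73 and 1.87, adjusted p = 7.17e-06 and 1.43e-05), and ResKCs and moKCs differed by -0.13 on the log2 scale (-0.70 to 0.44). CLEC4F- mac replicate 4 had both the most *Fabp7* of its group (209 CPM) and the least *Fabp5* (71.0 CPM). Without this sample, which also stood apart in its markers, the log2 fold changes of ResKCs against CLEC4F- macs were 2.08 for *Fabp7* and -3.29 for *Fabp5*, and those of moKCs 2.22 and -2.62. *Fabp4* was at 27.5 ± 10.6 CPM for ResKCs, 35.1 ± 18.9 CPM for moKCs and 52.0 ± 12.5 CPM for CLEC4F- macs. Although its 6 ResKC samples did not reach any CLEC4F- mac sample, its call (-0.92, adjusted p = 0.0460) was lost in 8 of the 12 fits without 1 replicate (adjusted p 0.0515 to 0.114, without ResKC replicate 3, 4, 5 or 6 or CLEC4F- mac replicate 1, 3, 5 or 6) and within the first naming scheme (-0.41, adjusted p = 0.546).

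Of the receptors, *Pparg* was 2.25-fold higher in CLEC4F- macs than in ResKCs and 1.97-fold higher than in moKCs. The CLEC4F- mac samples lay between 77.8 and 92.2 CPM, a narrow band above every KC sample, and the moKC samples had 20.4, 57.0, 46.2, 46.5 and 46.0 CPM. Against moKCs the log2 fold change was -0.98 (SE 0.18, adjusted p = 0.000177). *Ppard* had 1.42 to 4.02 CPM for CLEC4F- macs and 2.45, 0.925, 1.5, 1.35 and 0.805 CPM for moKCs, a log2 fold change of -0.79 (adjusted p = 0.0699), which was -1.09 (adjusted p = 0.0169) without moKC replicate 1 and -0.91 (adjusted p = 0.0380) without CLEC4F- mac replicate 6. The coactivator *Ppargc1b* was lower in CLEC4F- macs (7.37 to 11.4 CPM) than in every ResKC sample (13.9 to 22.0 CPM) and every moKC sample (12.4 to 20.5 CPM). Its log2 fold changes were 0.82 for ResKCs (SE 0.14, adjusted p = 1.54e-05) and 0.70 for moKCs (SE 0.14, adjusted p = 0.000596). Within the first naming scheme these were 0.50 and 0.58, with adjusted p = 0.0590 and 0.0795, and within the second they were 1.16 and 0.87, with adjusted p = 0.00159 and 0.0313.

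For the inhibitor *Angptl4* and for *Cd36* no difference between the 3 populations passed the test, and for *Lpl* the outcome depended on the setting. *Lpl* had 1748 ± 355 CPM for ResKCs (s.d., n = 6), 1904 ± 379.6 CPM for moKCs (s.d., n = 5) and 2223 ± 341 CPM for CLEC4F- macs (s.d., n = 6), with overlap in each pair. Against CLEC4F- macs the log2 fold change of ResKCs was -0.35 (adjusted p = 0.0602), which passed in 6 of 12 other settings (adjusted p 0.00771 to 0.311 over the 12) and without ResKC replicate 6 (-0.46, adjusted p = 0.0118) or CLEC4F- mac replicate 1 (-0.43, adjusted p = 0.0246). *Cd36* had 665 ± 129, 809 ± 177 and 748 ± 132 CPM in the same groups, and *Angptl4* 32.1 ± 8.54, 25.1 ± 10.9 and 37.4 ± 8.92 CPM. The intervals of ResKCs against CLEC4F- macs were -0.52 to 0.18 for *Cd36* and -0.79 to 0.35 for *Angptl4*. Those of moKCs against CLEC4F- macs were -0.25 to 0.48 and -1.18 to 0.03. Within CLEC4F- macs the samples of the 2 naming schemes did not overlap for these genes or for *Lpl*. *Cd36* had 571 to 679 CPM in the first scheme and 851 to 888 CPM in the second. *Angptl4* had 23.2 to 36.5 and 42.8 to 45.5 CPM, and *Lpl* 1690 to 2205 and 2251 to 2613 CPM. *Pdk4* lay between 2.37 and 13.6 CPM in the samples of the 3 populations. In moKCs it had 13.6 and 11.2 CPM in the samples of the first naming scheme and 2.77, 3.98 and 4.39 CPM in those of the second. Between moKCs and CLEC4F- macs its log2 fold change was 0.24 (adjusted p = 0.808), with a sign that was not the same in all settings.

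**Figure D5:**
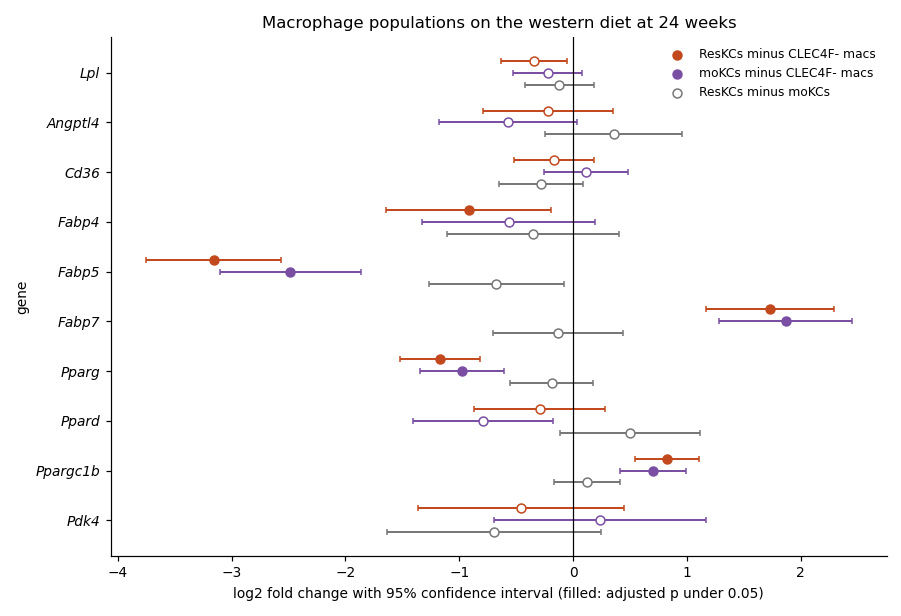
Log2 fold change with its 95% confidence interval between the 3 populations on the WD at 24 weeks. Filled points have an adjusted p under 0.05. *Fabp5* and *Pparg* lie left of 0 (higher in CLEC4F- macs) and *Fabp7* and *Ppargc1b* right of 0 for both kinds of KCs, and no point of ResKCs against moKCs is filled.

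For moKCs against CLEC4F- macs 2 of the 10 genes were called higher (*Ppargc1b*, *Fabp7*) and 2 lower (*Pparg*, *Fabp5*), where 9.34% of all genes were called higher and 7.09% lower, and 938 of 2416 called genes were higher with library size alone against 1253 of 2204 with TMM factors. The groups of these 4 genes did not overlap, as in 8.16% of all genes. Both comparisons share the CLEC4F- mac samples. Between ResKCs and moKCs 0 of the 10 were called, where 2.99% of all genes were, with 1 (*Fabp5*) at an unadjusted p under 0.05 and 0 by DESeq2 or limma-voom.

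Among the 58 other pathway genes, 12 were higher and 7 lower in ResKCs than in CLEC4F- macs (median 0.13), where 17.0% of all genes were higher and 16.1% lower. In moKCs 5 were higher and 4 lower (median 0.11), where 9.34% of all genes were higher and 7.09% lower. These shares of the list were near those of all genes, and the genes named next are single values, not a result about the list. *Slc27a6*, a fatty acid transporter, was higher in ResKCs by 2.99 and in moKCs by 3.75 on the log2 scale (8.62, 14.5 and 1.08 CPM for ResKCs, moKCs and CLEC4F- macs, adjusted p = 0.000490 and 0.000109). *Rxra*, the partner with which PPARs bind DNA, was higher in ResKCs by 1.17 (579 and 257 CPM, adjusted p = 1.35e-09) and in moKCs by 0.90 (adjusted p = 2.01e-06). The acyl-CoA synthetase *Acsl5* (0.65 and 0.53) was also higher in both, as were *Acsl4* in moKCs (0.37, adjusted p = 0.00832) and the mitochondrial importer *Cpt1a* in ResKCs (0.65, adjusted p = 2.40e-06). On the other side the transporter *Slc27a1* was lower in both (-0.68 and -0.85), the acyl-CoA binding protein *Dbi* (-0.64) and the synthetase *Acsl3* (-0.81) were lower in ResKCs, and the droplet coat *Plin2* (-0.67) and the uncoupling protein *Ucp2* (-0.28) were lower in moKCs. Between ResKCs and moKCs 0 of the 58 were called and 7 had an unadjusted p under 0.05. In the same populations the endothelial list summed to 834 to 1360.0 CPM for ResKCs, 771 to 1992 CPM for moKCs and 510 to 790.4 CPM for CLEC4F- macs. Lists of dendritic cell, B cell and T and NK cell genes had their highest medians in CLEC4F- macs. They summed to 5.75 to 8.73, 9.86 to 28.4 and 1.07 to 3.62 CPM for ResKCs. For CLEC4F- macs they summed to 11.3 to 152, 28.2 to 163 and 5.04 to 19.2 CPM, each highest in replicate 1. That sample had the most *Fabp5* (193 CPM), *Pparg* (92.2 CPM) and *Ppargc1b* (11.4 CPM) and the least *Fabp7* (35.9 CPM) of its group. The part of other cells in these differences was not tested.

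The groups were also ordered by their mean log2 CPM for each gene. *Fabp5* was highest in CLEC4F- macs, followed by moKCs and WD ResKCs at 24 weeks, and the last 3 places (WD and SD ResKCs at 12 weeks, SD ResKCs at 24 weeks) differed from each other by less than their spread. For *Fabp4* the order was CLEC4F- macs, moKCs, WD ResKCs at 24 weeks, WD ResKCs at 12 weeks and both SD groups, and only the step from WD ResKCs at 24 to 12 weeks was greater than the larger s.d. of its neighbours. *Angptl4* followed the order CLEC4F- macs, WD ResKCs at 24 weeks, moKCs and WD ResKCs at 12 weeks, and only the drop from there to both SD groups was beyond the spread. *Cd36* was highest in moKCs, followed by CLEC4F- macs and WD ResKCs at 24 weeks with no step beyond the spread, and then fell in steps beyond it to WD and SD ResKCs at 12 weeks. *Lpl* and *Ppargc1b* had their highest means in WD ResKCs at 12 weeks. The first 3 places of *Lpl* and the first 2 of *Ppargc1b* each differed from the next by less than the spread. No step in *Ppard* or *Pdk4* was greater than the spread.

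The genes whose 6 group means ran most like those of a member were named by the root mean square difference of centred log2 means. *Egln3* (0.14) was nearest to *Angptl4*, whose own means spanned 2.45. *B4galnt1* (0.13) and *Lgals1* (0.17) were nearest to *Fabp5* (span 4.6), *Sdc1* (0.17) to *Fabp4* (3.16) and *2810455O05Rik* (0.072) to *Fabp7* (2.04). *Cd36* (1.5) ran most like *Dlgap5*, *Bub1* and *Spag5* (0.084 to 0.087), *Lpl* (1.09) like *Dtl* (0.10), *Pparg* (1.46) like *Gfod1* (0.056) and *Ppargc1b* (1.28) like *Tbc1d2b* (0.043). With 6 points these are descriptions only. Between members the closest pairs were *Ppard* and *Pdk4* (0.33), *Lpl* and *Cd36* (0.37) and *Lpl* and *Ppard* (0.38).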

How the data were processed

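RNA of the sorted macs was sequenced by the authors from TruSeq libraries as single reads on a NextSeq500. The deposited values were raw read counts per gene symbol, made per the labels and the study's methods with HISAT2 2.2.0 on mm10 and featureCounts 2.0.0, while the annotation, strand setting and treatment of reads with several hits are not given in the sources used here. Samples were grouped by their titles, and the filter on low counts followed the study, which itself tested with limma.

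The counts were tested with edgeR 4.0.16 (quasi-likelihood, R 4.3.3) in 1 fit of the 6 group means over all 35 samples, with TMM factors, a prior count of 2, and Benjamini-Hochberg adjustment over all 13421 genes. The script was tested on simulated data. A gene was called at an adjusted p under 0.05. The study counts its replicates as mice, while the labels do not tie each sample to a mouse, and p-values measure the spread between these samples. No columns held identical values. The members and lists were chosen with earlier results of these data known. All members were named, and of the pathway list up to 4 called genes per direction and comparison with the largest fold change. Some genes that this rule would name are not reported here. For the likeness the 3 nearest genes were taken, of which the text gives the first or more.

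Alternatives were DESeq2 1.42.0, limma-voom (limma 3.58.1), all genes unfiltered, scaling by library size, a fit of the compared groups, a fold change limit of 1 on the log2 scale, the replicate number as a block, the naming scheme or the mean of a marker list as a covariate, and leaving out each replicate. The fits within a naming scheme and those of the pathway list were chosen after seeing the data.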

Additional observations from a re-analysis of the deposited data

Results flagged for a closer look

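Within the 6 groups, 60 combinations of gene and group were examined for a sample far from the others, and 4 had a lowest sample whose gap to the nearest, as a share of the group's range, was beyond Dixon's 95% limit. Chance gives about 1 in 20. *Pparg* in moKC replicate 1 was at 20.4 CPM with the other 4 samples at 46.0 to 57.0 CPM, a share of 0.790. This sample also had 10573 CPM over the immediate-early and heat-shock list and 1992 CPM over the endothelial list, the highest of the moKCs in both. *Fabp7* in SD ResKC replicate 6 at 24 weeks was at 141 CPM with the others at 280.4 to 403 CPM (share 0.654), and this sample had the highest endothelial sum of its group (2275 CPM). *Ppard* in SD ResKC replicate 4 at 12 weeks was at 0.774 CPM with the others at 1.3 to 1.81 CPM (share 0.604), a gene of few counts. *Pdk4* in CLEC4F- mac replicate 1 was at 2.70 CPM with the others at 5.5 to 7.95 CPM (share 0.654).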

How the results depend on the processing

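The 5 calls among the 10 genes at 24 weeks of diet were made in all 12 fits without 1 replicate (5 to 5) and in the other settings except a log2 fold change limit of 1, which gave 4, and the immediate-early and heat-shock covariate, which gave 3. At 12 weeks the count of 1 became 2 with DESeq2, 3 with the replicate block and 0 with limma-voom, no filter, library size alone, the compared groups alone, a log2 fold change limit of 1, or the endothelial or hepatocyte covariate (0 to 2 without 1 replicate). The difference of the diet effects had 2 with DESeq2. WD ResKCs at 24 against 12 weeks had 2 with DESeq2 and with the endothelial or hepatocyte covariate, 0 with limma-voom, no filter, the replicate block or within naming scheme 1, and 0 to 2 without 1 replicate. ResKCs against CLEC4F- macs had 3 of 5 with the fold change limit and within naming scheme 1 (4 to 5 without 1 replicate), 4 with no filter, and 6, with *Lpl* added, with DESeq2, library size alone, the replicate block or the naming scheme, hepatocyte or immediate-early covariate, and moKCs 2 of 4 with that limit (4 to 5). The 11 pathway genes called at 24 weeks became 5 with the fold change limit and 7 with the naming scheme covariate (6 higher). They became 17 with the endothelial and 1 with the immediate-early covariate, 4 within naming scheme 1 and 6 to 11 without 1 replicate. Counts over all genes moved by over 1.5 times in these settings: at 24 weeks from 1169 to 450 with the fold change limit, 469 with the immediate-early covariate and 501 within scheme 1, at 12 weeks from 5 to 44 with DESeq2, 86 with the block, 12 within scheme 1, and 0 to 3 with 7 of the others, and for the difference of the diet effects from 38 to between 0 (within scheme 1) and 192 (DESeq2). ResKCs against CLEC4F- macs went from 4433 to 1399 with the limit and 1669 within scheme 2, moKCs from 2204 to 678 and 325, ResKCs against moKCs from 401 to 186 and 62 (95 within scheme 1), and time on the WD from 438 to 93 with the limit, 190 with no filter, 231 with the compared groups alone and 21 within scheme 1. Without 1 replicate these counts were 829 to 1208 at 24 weeks, 84 without SD replicate 7 and 0 without any other at 12 weeks, 8 to 98 for the difference of the diet effects, 232 to 522 for ResKCs against moKCs and 126 to 489 with time on the WD, the lowest without WD replicate 5 of 12 weeks. With library size alone 292 of 449 genes were higher with time on the WD, against 206 of 438 with TMM factors. The cause of these changes was not tested, other than fewer samples within a scheme.

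Sign changes occurred only for fold changes that were not called. The difference of the diet effects was -0.015 for *Pparg* with limma-voom, -0.032 with the replicate block, -0.13 with the naming scheme, -0.073 with the endothelial and -0.17 with the immediate-early covariate and -0.19 within scheme 1. It was 0.026 for *Lpl* with library size alone, and for *Ppard* 0.23, 0.028 and 0.041 with the naming scheme covariate, the immediate-early covariate and within scheme 1. With time on the SD, *Pparg* was at -0.022 with library size alone, *Angptl4* at 0.11 with the block and with the naming scheme, 0.14 with the immediate-early covariate and 0.34 within scheme 1, *Fabp4* at -0.069 with the endothelial covariate and *Fabp5* at 0.17 within scheme 1. With time on the WD, *Pparg* was at -0.039 with the naming scheme and -0.075 with the immediate-early covariate, and *Fabp7* at 0.056 within scheme 1. The diet effect of *Pdk4* at 24 weeks was 0.34 with the endothelial covariate. At 12 weeks *Fabp5* was at -0.0062 with the hepatocyte covariate, and *Fabp7* at -0.024 with the immediate-early covariate and -0.078 within scheme 1. Between populations, *Pdk4* in moKCs against CLEC4F- macs was -0.54 and -0.18 with the endothelial and hepatocyte covariates and -0.88 within scheme 2, where *Cd36* was -0.094. ResKCs against CLEC4F- macs gave 0.15 for *Angptl4* within scheme 1 and 0.11 for *Ppard* within scheme 2, and ResKCs against moKCs -0.077 for *Ppargc1b* within scheme 1 and 0.28 for *Pdk4* within scheme 2. Without 1 replicate the sign changed for *Pparg* (-0.082 to 0.17 with time on the SD, -0.026 to 0.079 on the WD, -0.15 to 0.10 for the difference), *Fabp7* (-0.075 to 0.22 at 12 weeks, -0.24 to 0.056 on the WD, -0.22 to 0.019 against moKCs), *Angptl4* (-0.31 to 0.13 on the SD), *Ppargc1b* (-0.11 to 0.029 on the SD), *Ppard* (-0.068 to 0.19 on the WD), *Fabp5* (-0.062 to 0.22 at 12 weeks), *Lpl* (-0.15 to 0.033 for the difference), *Fabp4* (-0.0702 to 0.72 on the SD, -0.49 to 0.016 against moKCs) and *Pdk4* (-0.13 to 0.44 in moKCs against CLEC4F- macs).

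In no comparison did every pair of same-numbered samples deviate together with a correlation over 0.1, so the numbers were not taken as pairs. The median correlation was 0.06 over 6 pairs at 24 weeks (2 over 0.1) and -0.04 over 5 pairs at 12 weeks (0 over 0.1). For ResKCs and CLEC4F- macs it was 0.11 over 6 pairs (4 over 0.1), and all lay between 0.02 and 0.26. The labels do not say whether the populations came from the same mice, and this rule cannot decide it. With the replicate block the counts of called members were 5 at 24 weeks, 3 at 12 weeks, 6 for ResKCs against CLEC4F- macs and 0 with time on the WD, and those of the other 4 comparisons did not change. Depth limits *Ppard* most, at 11 to 58 counts in a sample.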
